A study of Mus musculus with 4 samples.

Results

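The genes described here encode the machinery that carries proteins into mitochondria and folds or degrades them there. They are the rows of the deposited table whose symbol is Timm or Tomm followed by a digit, or one of 15 named chaperone, protease, prohibitin, motor and sorting genes. The rule found 39 of the 20555 genes in the table, 38 of them protein-coding and 1, Tomm6os, an antisense transcript of the Tomm6 locus. The libraries came from bulk mouse mammary tumours driven by PyMT, the polyoma virus middle T antigen, with 2 libraries of Control-PyMT (genotype label PyMT) and 2 of MYC-PyMT (genotype label S100a8-creRosa26-LSL-MYCPyMT). In the latter genotype a Cre recombinase driven from S100a8, a gene strongly expressed by neutrophils, opens a MYC allele at Rosa26 by removing a stop cassette, and PyMT is shared by both groups. The labels give neither the age of the animals nor whether the libraries of a group came from separate tumours, so the p-values reflect only how far these particular libraries spread, which may be technical. In bulk tissue, more cells with a transcript and more transcript per cell cannot be told apart.

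Nearly all mitochondrial proteins are made in the cytosol and imported. The TOM complex is the entry channel of the outer membrane. From there, precursors with a presequence pass the TIM23 complex of the inner membrane and are pulled into the matrix by a motor built around the mitochondrial HSP70, carriers are handed by small TIM chaperones to the TIM22 complex, and outer membrane barrel proteins are inserted by SAM. In the matrix the HSP60 and HSP10 chaperonin folds the imported chains, and the proteases LONP1 and CLPXP remove those that fail.

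MYC-PyMT tumours had higher levels of most of these genes. Of the 38 that passed the level filter (a scaled count of at least 10 in at least 2 libraries), 33 rose and 0 fell (limma with Benjamini-Hochberg adjustment over all tested genes, threshold 0.05). At an unadjusted p under 0.05, 35 were higher and 0 lower. On recovered reads, DESeq2 and the quasi-likelihood test of edgeR each called 33 higher and 0 lower. Over all 16725 tested genes, 23.3% were called higher and 24.6% lower. The median log2 change of the 38 genes was 1.37, against -0.02 over all tested genes. Changes of at least 1 on the log2 scale were called for 26 of the 38, and for 14.4% of all tested genes. Both MYC-PyMT libraries lay above both Control-PyMT libraries for 37 of the 38, and for 37.0% of all tested genes.

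The 39 genes together took 0.303% and 0.274% of all scaled counts in the Control-PyMT libraries, and 0.708% and 0.795% in the libraries of MYC-PyMT (replicate 1 before replicate 2, here and wherever a pair of values is given). Scaled counts are read counts divided by a size factor per library, without division by gene length. Total reads were 32245080 and 32879311 in Control-PyMT against 34190913 and 31783846 in MYC-PyMT. Log2 changes are of scaled counts plus 1 and are given with their standard error (SE).

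**Figure D1:**
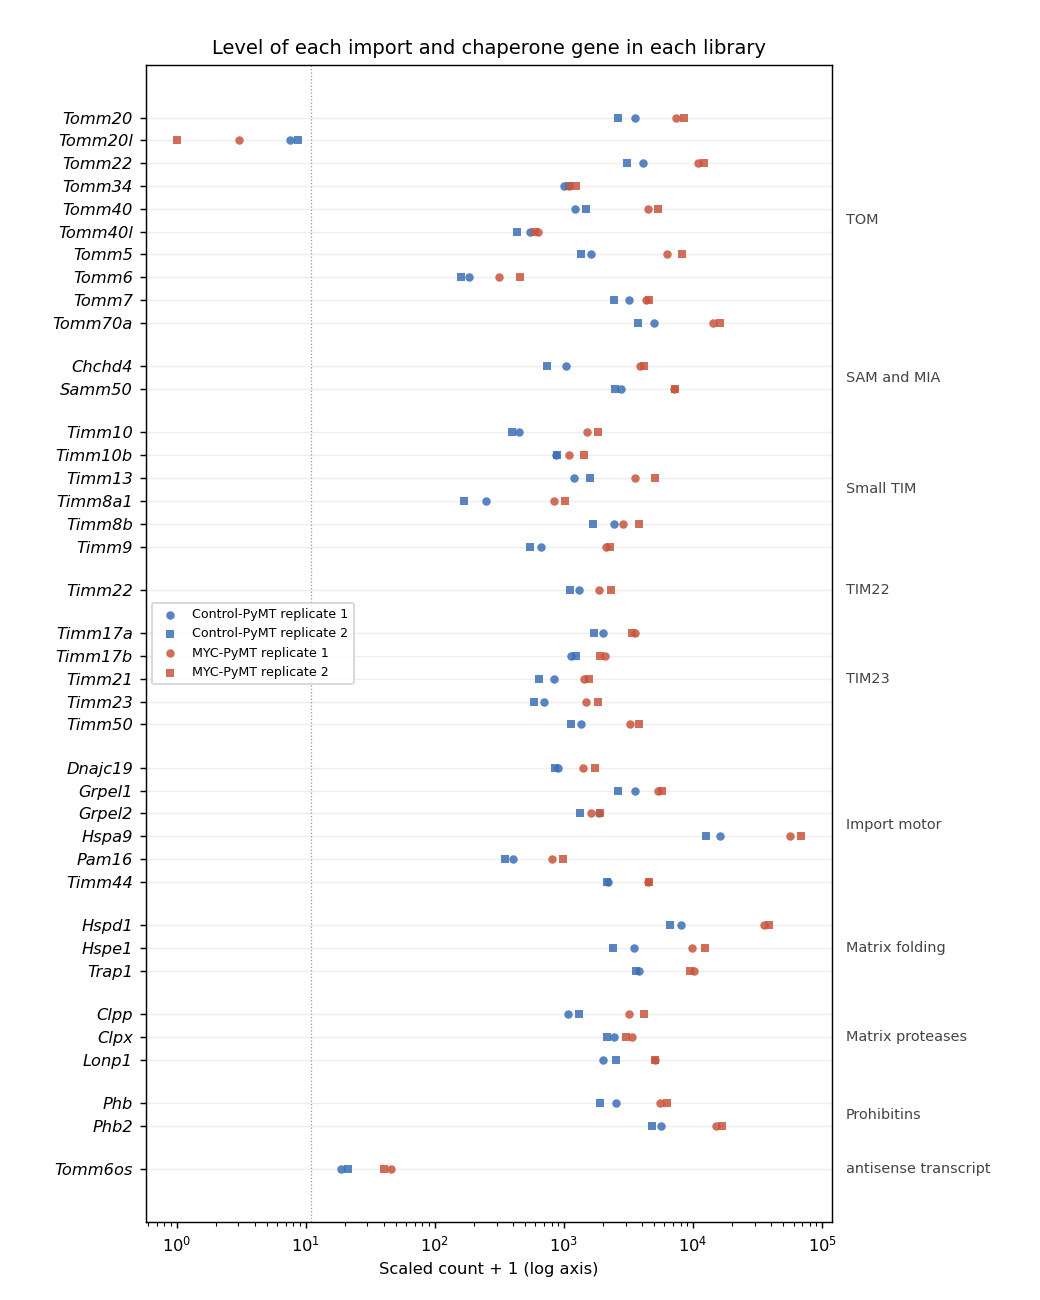
Scaled counts plus 1 (log axis) of the 39 genes in each library, ordered by role along the import route. Blue symbols are Control-PyMT, red symbols MYC-PyMT, circles replicate 1 and squares replicate 2. The dotted line marks the level filter of 10, which Tomm20l alone did not pass.

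The outer membrane channel rose with 7 of its 9 tested genes. Tomm40, which forms the pore, was at 1226 and 1479 scaled counts in Control-PyMT against 4472 and 5354 in MYC-PyMT, a log2 change of 1.86 (SE 0.20, limma adjusted p = 7.90e-05). Tomm5, a small subunit of the channel, had the largest change of the group, from 1630.1 and 1355 to 6252 and 8201 (log2 2.27, SE 0.21, limma adjusted p = 3.74e-05). The groups did not overlap for either gene. Tomm22, the central receptor that holds the complex together, went from 4101 and 3087 to 10878 and 12063 (log2 1.69, SE 0.20, limma adjusted p = 0.000160). Tomm70a, the receptor for carrier precursors, went from 5002 and 3729.6 to 14338 and 16245 (log2 1.82), and Tomm20, the receptor for presequences, from 3517 and 2635 to 7335 and 8508 (log2 1.38).

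The other small channel subunits also rose. Tomm7 rose from 3194 and 2459.8 to 4325 and 4559.5 (log2 0.66, SE 0.20, limma adjusted p = 0.0185). Tomm6 rose from 181 and 159 to 315 and 454 (log2 1.15, SE 0.28, limma adjusted p = 0.00703). Both calls were lost in several of the fits that left out a library. The call of Tomm7 was lost without Control-PyMT replicate 2 (log2 0.48, limma adjusted p = 0.0719), MYC-PyMT replicate 1 (0.70, 0.0707) or MYC-PyMT replicate 2 (0.63, 0.119), with no variance trend (0.0681), and with each library's trend along transcript length removed (0.30, 0.220). That of Tomm6 was lost without Control-PyMT replicate 1 (limma adjusted p = 0.0584), Control-PyMT replicate 2 (0.0829) or MYC-PyMT replicate 2 (0.0806). In GENCODE release M21, 76.0% of the exon bases of Tomm6 (chromosome 17, 47686646 to 47688386) lie in exons of Gm21981 on the same strand, a gene listed at 11.0 to 18.7 scaled counts in the 4 libraries, so the reads of Tomm6 may be incomplete. The antisense Tomm6os shares 219 exon bases with Tomm6, and their reads may mix, because no source used here gives the strand setting of the counting. Tomm6os had 17.8 and 20.4 scaled counts in Control-PyMT against 44.3 and 39.6 in MYC-PyMT (log2 1.10, SE 0.40, limma adjusted p = 0.0437). This call was lost without any 1 of the 4 libraries (limma adjusted p from 0.0858 to 0.168) with the replicate number as a block (0.0508), with no level filter (0.0537), with upper-quartile scaling (0.0623) and by DESeq2 (0.195).

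Of the remaining TOM-named genes 2 were not called and 1 was not tested, none of them a core channel subunit. Tomm40l, a second form of the pore gene, had 540 and 434 scaled counts in Control-PyMT against 629.99 and 590.1 in MYC-PyMT (log2 0.33, SE 0.22, limma adjusted p = 0.245). Its exons share 64.3% of their bases with Nr1i3 on the opposite strand, which was listed at 35.7 to 60.4. Tomm34, a cytosolic co-chaperone, had 1006 and 1086 against 1089 and 1246 (log2 0.16, 95% interval -0.28 to 0.59, limma adjusted p = 0.536). Tomm20l, a relative of Tomm20, was below the filter, at 6.55 and 7.64 scaled counts (7 and 9 reads) in Control-PyMT and 2.01 and 0 (2 and 0 reads) in MYC-PyMT. It ends across from Timm9 on the opposite strand, where 49 exon bases overlap.

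The sorting genes behind the channel both rose. Chchd4, the oxidoreductase that traps cysteine-rich proteins in the intermembrane space, went from 1034 and 742 scaled counts to 3867 and 4139, one of 5 changes above 2 on the log2 scale (2.19, SE 0.21, limma adjusted p = 5.08e-05). Samm50, the core of the SAM machinery, went from 2748 and 2467 to 7125 and 7285 (log2 1.47, SE 0.18, limma adjusted p = 0.000171). The MYC-PyMT libraries lay close together and well above Control-PyMT for both genes.

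Of the 6 small TIM chaperones, which escort hydrophobic precursors across the intermembrane space, 5 rose. Timm9 and Timm10, whose products assemble with each other, both rose. Timm9 went from 657 and 541 to 2117 and 2272 (log2 1.88, SE 0.20, limma adjusted p = 8.51e-05), and Timm10 from 451 and 392 to 1516 and 1843 (log2 1.99, SE 0.21, limma adjusted p = 8.42e-05). Timm10b, the form that docks at TIM22, had 872 and 877 in Control-PyMT against 1093 and 1431 in MYC-PyMT and was not called (log2 0.52, 95% interval 0.05 to 0.98, limma adjusted p = 0.0665). Without MYC-PyMT replicate 2 its change was 0.32.

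Timm8a1, the mouse counterpart of the human deafness-dystonia gene, went from 246 and 168 scaled counts to 836 and 1012 (log2 2.17, SE 0.26, limma adjusted p = 0.000160). Its partner Timm13 went from 1203 and 1582 to 3531 and 5111 (log2 1.62, SE 0.23, limma adjusted p = 0.000409). Timm8b, the paralog of Timm8a1, rose less, from 2438 and 1687 to 2848 and 3813 (log2 0.70, SE 0.23, limma adjusted p = 0.0320). The rise of Timm8b was the least stable of the group. Its call was lost without Control-PyMT replicate 2 (log2 0.43, limma adjusted p = 0.217), without MYC-PyMT replicate 2 (0.49, 0.242) with upper-quartile scaling (0.60, 0.0573) and with no variance trend (0.103). With the length trend removed, its change was -0.02 (limma adjusted p = 0.950). Timm8b has the shortest transcript of the 39 genes (518 bases).

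At the inner membrane, the TIM22 and TIM23 genes all rose, with log2 changes of 0.75 to 1.51. Timm22, the carrier insertion channel, went from 1307 and 1108 to 1879.9 and 2309 (log2 0.79, SE 0.20, limma adjusted p = 0.00942), a call lost without Control-PyMT replicate 2 (0.0725) or MYC-PyMT replicate 2 (0.117). All 5 genes of the presequence channel rose. Timm50, its receptor, went from 1353 and 1138 to 3272 and 3824 (log2 1.51, SE 0.19, limma adjusted p = 0.000229), and the channel gene Timm23 from 704 and 583 to 1481 and 1839 (log2 1.36, SE 0.21, limma adjusted p = 0.000677). Timm21, which couples the channel to TOM and to the respiratory chain, had a log2 change of 1.02 (SE 0.21). The paralogs Timm17a and Timm17b, alternative subunits beside the channel, changed by 0.89 (SE 0.18) and 0.75 (SE 0.19). The call of Timm17b was lost without MYC-PyMT replicate 1 (log2 0.69, limma adjusted p = 0.0835).

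In the import motor, 5 of 6 genes rose, and the HSP70 gene had the largest change. Hspa9, which encodes mortalin, went from 16101 and 12699.7 scaled counts in Control-PyMT to 55856 and 68305 in MYC-PyMT (log2 2.11, SE 0.22, limma adjusted p = 8.41e-05). Per length of the longest annotated transcript it was the most abundant of the 38 tested import and chaperone genes in both groups, with means of 4723 and 20361 scaled counts per kilobase. Timm44, which anchors mortalin to the channel, went from 2194 and 2139.6 to 4440.1 and 4586 (log2 1.06, SE 0.18, limma adjusted p = 0.000973). The J-like regulator Pam16 went from 398 and 346 to 809 and 982 (log2 1.26, SE 0.22), and its J-protein partner Dnajc19 from 902 and 854 to 1389.8 and 1732 (log2 0.82, SE 0.20, limma adjusted p = 0.00794). The call of Dnajc19 was lost without Control-PyMT replicate 2 (limma adjusted p = 0.0612) or MYC-PyMT replicate 2 (0.114).

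Of the nucleotide exchange factors of the motor, Grpel1 rose and Grpel2 was not called. Grpel1 went from 3552 and 2610.1 to 5357 and 5694 (log2 0.86, SE 0.20, limma adjusted p = 0.00642). Grpel2 had 1854 and 1329 in Control-PyMT against 1627 and 1909 in MYC-PyMT, the single tested gene of the 38 whose groups overlapped (log2 0.17, 95% interval -0.32 to 0.65, limma adjusted p = 0.551). Its change was -0.07 without Control-PyMT replicate 2 and 0.41 without Control-PyMT replicate 1.

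**Figure D2:**
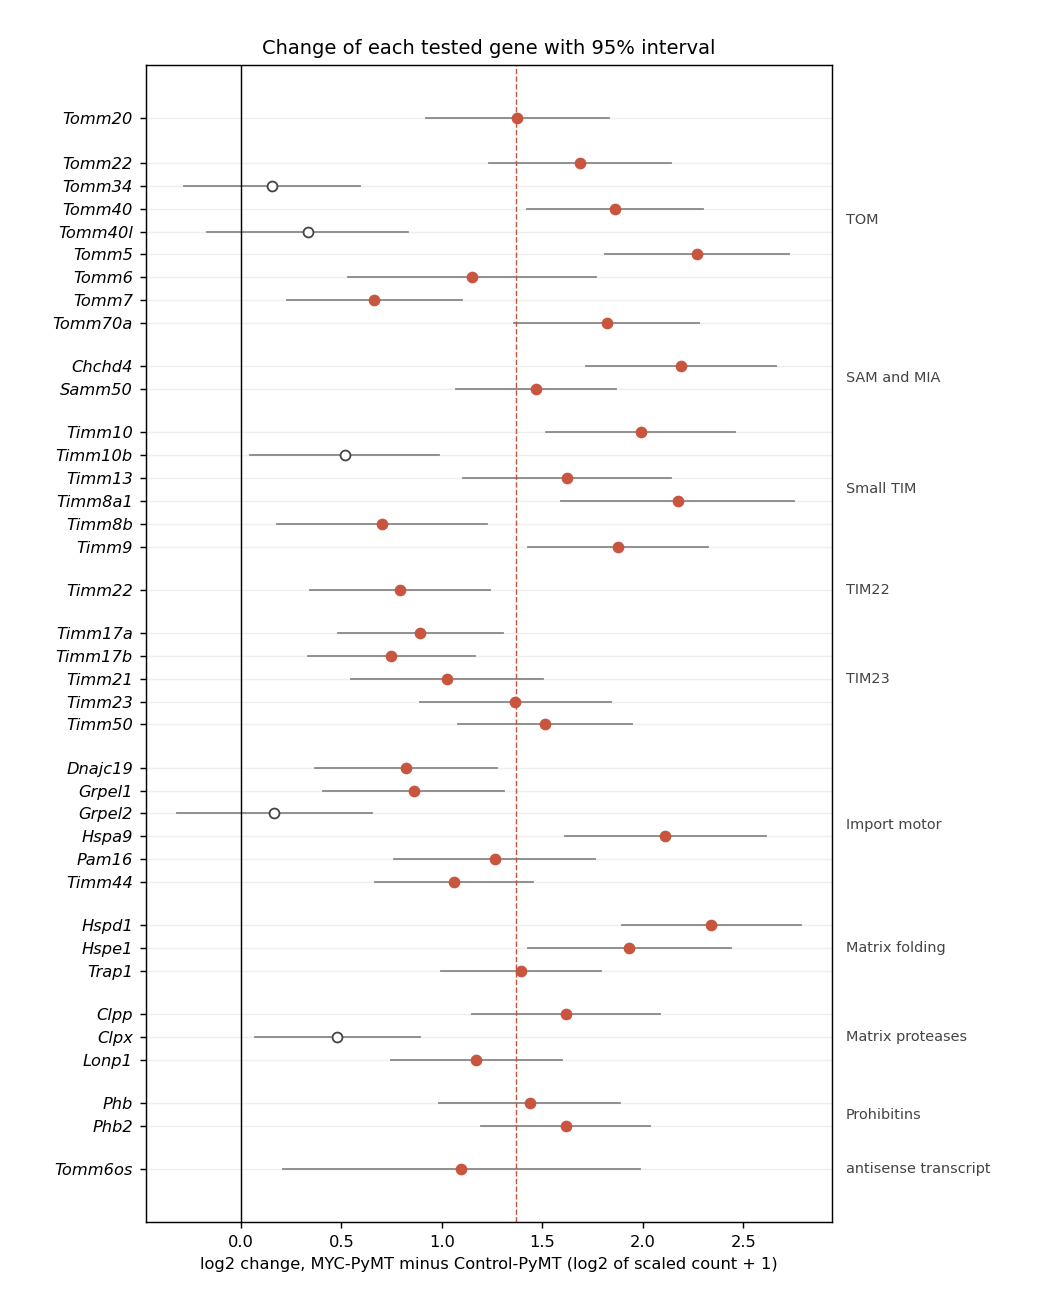
Log2 change of each of the 38 tested genes, MYC-PyMT minus Control-PyMT, with its 95% interval from limma; filled points passed an adjusted p under 0.05 and open points did not. The dashed line is the median of 1.37, and the 5 open points are Tomm34, Tomm40l, Timm10b, Grpel2 and Clpx.

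The matrix chaperonin showed the largest change of the 38 tested genes. Hspd1, which encodes HSP60, went from 8047 and 6628 scaled counts to 35639 and 38397 (log2 2.34, SE 0.20, limma adjusted p = 2.70e-05). Hspe1, which encodes the HSP10 lid of the chaperonin, went from 3462 and 2391 to 9779 and 12318 (log2 1.93, SE 0.23, limma adjusted p = 0.000139). Per kilobase of transcript their Control-PyMT means were close, 3028 for Hspd1 and 3036 for Hspe1, and in MYC-PyMT they were 15278 and 11461, with no overlap between the libraries of the 2 genes. Trap1, the mitochondrial member of the HSP90 family, went from 3807 and 3632 to 10105 and 9429 (log2 1.39, SE 0.18, limma adjusted p = 0.000223).

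Hspd1 and Hspe1 lie head to head on chromosome 1, Hspd1 on the minus strand (55077835 to 55088243) and Hspe1 on the plus strand (55088132 to 55091307), and 112 of their exon bases overlap on opposite strands. RefSeq places the start of Hspe1 at 55088148 and gives Hspd1 the start sites 55087932 and 55088243. The shared region is shown because both genes start within it and rose together. The windows below are from RefSeq (GRCm38.p6), from 250 bases before to 50 after a start, and capitals mark motifs on either strand: CACGTG is the E-box that MYC binds together with MAX, the letters CCGGAAG are a core bound by ETS factors such as GABPA, and a core bound by NRF1 reads GCATGCGC. The window of Hspe1 is chr1:55087898-55088197 on the plus strand, and that of the outer start of Hspd1 is chr1:55088194-55088493 on the minus strand.
Hspe1: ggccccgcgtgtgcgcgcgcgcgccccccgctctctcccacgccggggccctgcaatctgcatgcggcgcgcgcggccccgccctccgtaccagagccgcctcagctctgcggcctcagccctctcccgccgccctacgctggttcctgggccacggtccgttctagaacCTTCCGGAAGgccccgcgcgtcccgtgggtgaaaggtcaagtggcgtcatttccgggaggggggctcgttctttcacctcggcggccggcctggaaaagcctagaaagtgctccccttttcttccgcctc
Hspd1: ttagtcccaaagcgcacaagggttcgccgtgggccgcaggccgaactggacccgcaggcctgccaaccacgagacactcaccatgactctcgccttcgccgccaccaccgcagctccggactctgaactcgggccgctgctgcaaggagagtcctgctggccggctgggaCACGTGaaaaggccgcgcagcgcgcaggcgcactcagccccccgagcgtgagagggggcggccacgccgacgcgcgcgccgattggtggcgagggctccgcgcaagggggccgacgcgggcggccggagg

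The window of Hspe1 holds overlapping copies of CCGGAAG, one on each strand, and no CACGTG. The outer window of Hspd1 holds 1 CACGTG, whose first base lies 80 bases before that start. That site also lies inside the annotated span of Hspe1, past the end of the Hspe1 window. Hspe1 therefore counts below as a gene without CACGTG only because of where its window ends. The window of the inner Hspd1 start lies almost wholly within that of Hspe1 and holds the same copies of CCGGAAG. A match of letters is a description of the sequence and does not show that a factor was bound.

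Promoter windows were found by symbol for 34 of the 39 genes. CACGTG, which reads the same on both strands, was in a window of 9 of the 34 (26.5%). Of the 33 tested ones it was in 8 (24.2%), and of all 11564 tested genes with a window in 11.1%. The holders among the 39 were Hspd1, Lonp1, Phb, Timm10, Timm8a1, Timm9, Tomm20, Tomm20l and Tomm6os. The 8 of them that were tested all rose, with a median log2 change of 1.66, and the 25 tested genes with a window but no CACGTG had a median of 1.36, of which 22 rose. CCGGAAG was in a window of 12 of the 33 tested genes (36.4%), against 17.8% of all tested genes with one, and GCATGCGC in 3 (9.1%), against 5.3%. With CCGGAAG 10 of 12 rose (median log2 change 1.62), and without it 20 of 21 (1.38). With GCATGCGC 2 of 3 rose (median 0.86), and without it 28 of 30 (1.41). Over all tested genes with a window, the shares among those called higher and those called lower were 14.4% and 8.0% for CACGTG, 24.0% and 9.7% for CCGGAAG, and 7.5% and 2.5% for GCATGCGC. CCGGAAG was also held by genes on the list that changed little, among them Tomm34 (log2 0.16) and Timm10b (0.52).

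Timm10 is printed whole because it holds both motifs beside its start, within chr2:84826771-84827070 on the plus strand. The short sites that follow, those of Phb, Lonp1 and Tomm20 chosen after their values were seen, show the E-box of 5 further genes with 12 bases on each side, 5′ to 3′ on the strand of the gene, with CACGTG in capitals. They lie at chr12:71136716-71136745 and chr12:71136659-71136688 (Timm9), chrX:134541889-134541918 and chrX:134541629-134541658 (Timm8a1), chr11:95666713-95666742 (Phb), chr17:56626922-56626951 (Lonp1) and chr8:126946030-126946059 (Tomm20), on the minus strand except for Phb.
Timm10: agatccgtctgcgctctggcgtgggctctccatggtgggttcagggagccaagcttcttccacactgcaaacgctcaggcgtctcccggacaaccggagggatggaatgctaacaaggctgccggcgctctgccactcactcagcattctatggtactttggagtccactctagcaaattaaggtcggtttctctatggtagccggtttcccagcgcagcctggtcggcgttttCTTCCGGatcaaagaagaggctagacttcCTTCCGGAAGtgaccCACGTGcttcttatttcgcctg
Timm9, upstream site: cctacattttccCACGTGgtaacgaatctg
Timm9, site at the start: catcactgccccCACGTGttctcagctttc
Timm8a1, upstream site: ccttcagtggacCACGTGggatgaagcaac
Timm8a1, site after the start: ccgtcacccagaCACGTGaaggtcggcaag
Phb: ttgaggaataggCACGTGcatatattacca
Lonp1: cgcgagcgtcatCACGTGcgcaaacggggg
Tomm20: gcacgccacaaaCACGTGctgcccctgacc

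The E-box of Timm10 begins at base 29 of the transcript, those of Timm8a1 at 236 bases before and at base 25, and those of Timm9 at 58 bases and 1 base before the start. The bases beside CACGTG differed between the genes. Timm9 and Timm8a1 held 2 copies each, and the other genes shown held 1.

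Of the matrix proteases, Clpp and Lonp1 rose and Clpx was not called. Clpp, the proteolytic chamber, went from 1075 and 1298 scaled counts to 3159 and 4154 (log2 1.62, SE 0.21, limma adjusted p = 0.000237). Clpx, the unfoldase that feeds it, had 2446 and 2137 in Control-PyMT against 3349 and 3036 in MYC-PyMT and was not called (log2 0.48, 95% interval 0.07 to 0.89, limma adjusted p = 0.0544), though TMM scaling (0.0487) and DESeq2 (0.0497) placed it under the threshold. Lonp1, the other main protease of the matrix, went from 2013 and 2524 to 5098 and 5057 (log2 1.17, SE 0.19, limma adjusted p = 0.000849). The prohibitin genes, whose products form a ring scaffold in the inner membrane, both rose: Phb from 2506 and 1886 to 5557 and 6231 (log2 1.44, SE 0.20), and Phb2 from 5592 and 4839 to 15149.8 and 16757 (log2 1.61, SE 0.19).

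Ratios of gene pairs within a library do not depend on the scaling between libraries. The 11 pairs were chosen by family or shared complex, and an exact two-sided test of 2 libraries against 2 cannot go below p = 0.33, so their ratios are given as values. The ratio of Tomm40 to Tomm40l was 2.27 and 3.41 in Control-PyMT against 7.10 and 9.07 in MYC-PyMT. Timm8a1 to Timm8b went from 0.101 and 0.0997 to 0.294 and 0.265, and Timm10 to Timm10b from 0.517 and 0.448 to 1.39 and 1.29. For each of these pairs both MYC-PyMT libraries had the higher ratios.

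Grpel1 to Grpel2 moved from 1.92 and 1.96 to 3.29 and 2.98, and Clpp to Clpx from 0.439 and 0.607 to 0.943 and 1.37. Timm17a to Timm17b was 1.76 and 1.40 against 1.71 and 1.76, and Timm9 to Timm10 was 1.46 and 1.38 against 1.40 and 1.23, with overlapping groups. Hspd1 to Hspe1 was 2.32 and 2.77 in Control-PyMT against 3.64 and 3.12 in MYC-PyMT. Pam16 to Dnajc19 was 0.442 and 0.405 against 0.582 and 0.567. The ratio was lower in MYC-PyMT for Timm8b to Timm13, at 2.03 and 1.07 against 0.806 and 0.746, and for Phb to Phb2, at 0.448 and 0.390 against 0.367 and 0.372. The ratios are of scaled counts that were not divided by length, so they compare libraries and not the levels of the genes of a pair. Each library's trend along transcript length was not removed from the ratios. It need not cancel between genes of unequal length, such as Timm10 and Timm10b (690 and 3273 bases). With that trend removed, the log2 change of Timm8b went from 0.70 to -0.02.

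**Figure D3:**
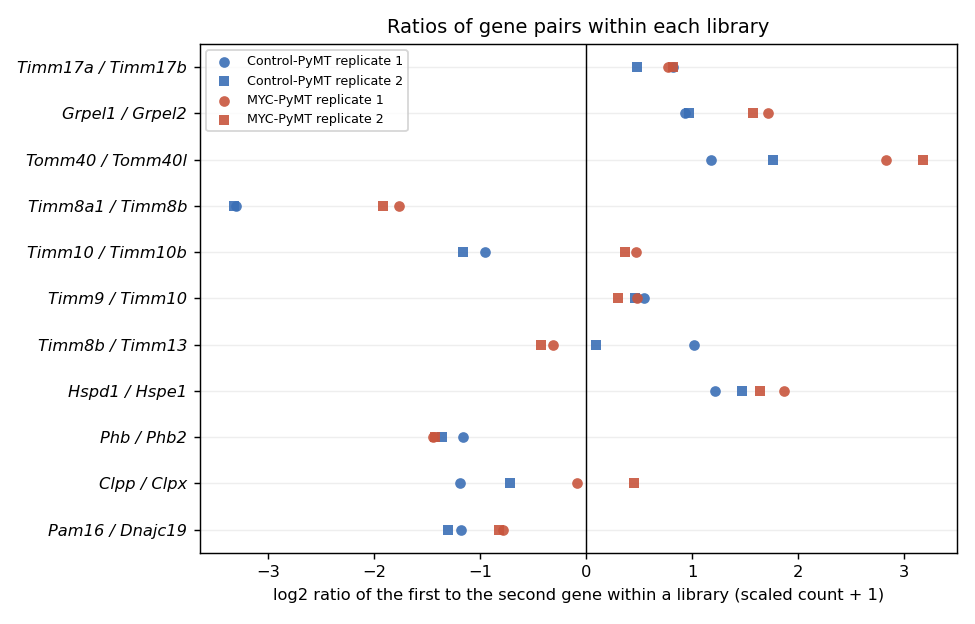
Log2 ratio of the first to the second gene of each pair within a library, from scaled counts plus 1; blue is Control-PyMT, red MYC-PyMT, circles replicate 1 and squares replicate 2. The groups overlap for Timm17a / Timm17b and Timm9 / Timm10; how often ratios of other genes lie apart was not measured.

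Other genes of the route were also mostly higher. Of 33 partner genes for presequence cleavage, sorting, cristae and inner membrane quality control, 22 rose and 0 fell (median log2 change 0.88). The shares over all tested genes were 23.3% higher and 24.6% lower. Fewer partner genes were called higher in each fit that left out a library. At an unadjusted p under 0.05 limma gave 24 higher and 0 lower, and edgeR and DESeq2 each called 22 higher and 0 lower. Those with the smallest p were Dnajc11, an outer membrane J-protein tied to cristae (log2 1.53, SE 0.18, limma adjusted p = 0.000127), Htra2, a protease of the intermembrane space (1.68, SE 0.20, 0.000142), Parl, a rhomboid protease of the inner membrane (1.47, SE 0.18, 0.000199), and Chchd3, a cristae organiser (1.48, SE 0.20, 0.000335). Gfer, which reoxidises the product of Chchd4, rose by 1.49, and Pmpca and Pmpcb, the subunits of the presequence peptidase, by 0.88 and 0.67. Yme1l1, Oma1 and Pink1, which act in mitochondrial quality control, had log2 changes of 0.05, 0.03 and -0.08 and were not called. Gfer, the peptidase genes and the last 3 were chosen after their values were seen, and the call of Pmpcb was lost without Control-PyMT replicate 2 (limma adjusted p = 0.067), MYC-PyMT replicate 1 (0.117) or MYC-PyMT replicate 2 (0.0699).

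The inner membrane carriers, the main cargo of the small TIM and TIM22 route, were mixed. Of 46 Slc25a rows 42 were tested, of which 15 rose, 2 fell and 25 were not called (median log2 change 0.40). Among all tested genes the shares called higher and lower were 23.3% and 24.6%, so few carriers fell. Fewer carriers were called higher in each fit that left out a library. Slc25a5, an adenine nucleotide carrier, went from 9225 and 7156 scaled counts to 27467 and 28268 (log2 1.78, SE 0.20, limma adjusted p = 0.000123). Slc25a33, a pyrimidine nucleotide carrier, went from 235 and 195 to 810.1 and 1001 (log2 2.07), Slc25a39, linked to mitochondrial glutathione, from 3488 and 5369 to 11514 and 11555 (log2 1.41), and Slc25a48 from 70.1 and 34.0 to 638 and 474 (log2 3.46). Slc25a36, another pyrimidine nucleotide carrier, fell from 6555 and 4925 to 2241 and 2104 (log2 -1.39, SE 0.20, limma adjusted p = 0.000418). Slc25a34 had 193 and 769.5 against 139.9 and 50.6 (log2 -2.18, limma adjusted p = 0.0156), a call lost without Control-PyMT replicate 2 (log2 -1.18, 0.263). With the replicate number as a block 4 carriers fell.

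Transcripts of the mitochondrial genome itself, which need no import, were mostly not called in these poly(A)-selected libraries. Of 13 listed, 11 had a row and 8 were tested, of which 2 rose and 0 fell (median log2 change 0.52). Over all tested genes 23.3% were called higher and 24.6% lower, so 2 higher of 8 was near the overall share. Both MYC-PyMT libraries lay above both Control-PyMT libraries for 6 of the 8, and for 37.0% of all tested genes. The 11 together took 2.89% and 2.61% of all scaled counts in Control-PyMT against 3.43% and 3.25% in MYC-PyMT. Limma gave 2 higher and 0 lower also at an unadjusted p under 0.05, edgeR 2 higher and 0 lower, and DESeq2 3 higher and 0 lower. mt-Nd6 rose by 0.93 (SE 0.20, limma adjusted p = 0.00347). mt-Nd1 rose by 0.92 (SE 0.26, limma adjusted p = 0.0145), a call lost without any 1 of the 4 libraries (0.0559 to 0.126). mt-Co1, the most abundant of them, had 392717 and 315472 scaled counts against 503390.0 and 454403 (log2 0.44, limma adjusted p = 0.280). mt-Atp6, mt-Co2 and mt-Co3, abundant transcripts in most tissues, did not pass the level filter here: they were listed at 0 to 6.59, apart from 313 for mt-Co3 in MYC-PyMT replicate 1. mt-Atp8 and mt-Nd4l were not analysed here.

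**Figure D4:**
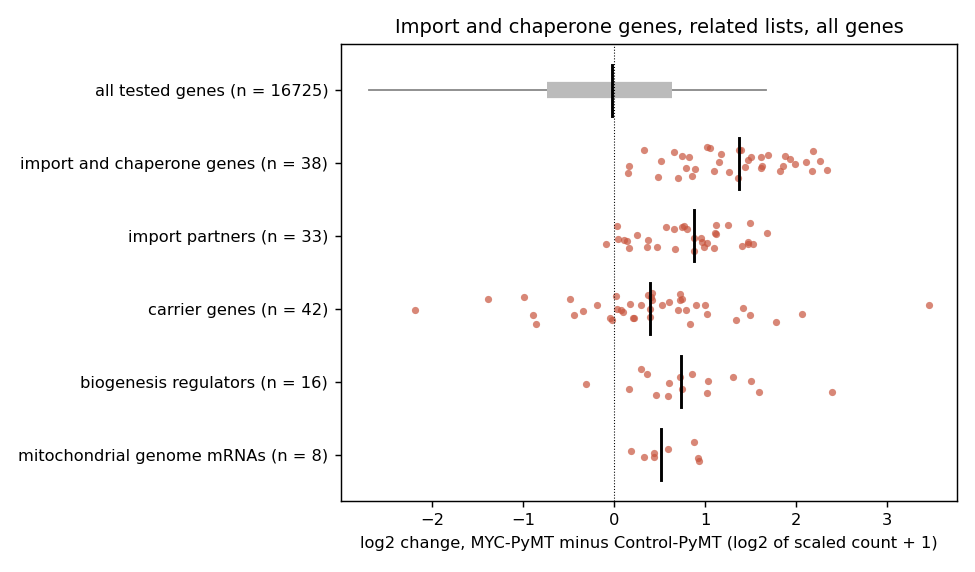
Log2 change, MYC-PyMT minus Control-PyMT, of each tested gene (points) of the import and chaperone genes and 4 related lists; black bars are medians. For all 16725 tested genes the grey box spans the quartiles (-0.74 to 0.64) and the line the 5th to 95th percentile (-2.69 to 1.67).

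Markers of cell types also moved between the groups, and their part in these results was not tested. The counts below stand beside 23.3% called higher and 24.6% lower over all tested genes. Of 9 luminal markers, 5 fell and 0 rose, with summed scaled counts of 151198 and 144024 in Control-PyMT against 113313 and 114627 in MYC-PyMT; those that fell were Cdh1, Krt19, Kit, Prlr and Esr1. Krt8, Krt18 and Epcam, also on the luminal list, were at 15452 to 28747 scaled counts in the 4 libraries and were not called. Both MYC-PyMT libraries lay below both Control-PyMT libraries for Krt18 (log2 -0.37) and Epcam (-0.32). Elf5, also not called, went the other way, from 14482 and 13669 to 19141 and 19697.5 (log2 0.46, limma adjusted p = 0.066). DESeq2 called 1 luminal marker higher and 5 lower. Of 9 leukocyte markers, 6 of 8 tested fell (sums 4214 and 4340.3 against 2511 and 2423). All 5 tested of 6 keratinocyte markers fell (2385 and 1153 against 121 and 153), with Krt25 at 0 in both MYC-PyMT libraries. Of 5 basal markers 3 fell and 1 rose (35223 and 33666 against 10126 and 22193). Of 5 skeletal muscle markers, a tissue rich in mitochondria, 2 rose, at sums of 153 and 990.4 in Control-PyMT against 745 and 1975 in MYC-PyMT. The groups overlapped in that sum, and the count of muscle markers that rose was 0 without Control-PyMT replicate 1 and 5 without MYC-PyMT replicate 1. Of 5 adipocyte markers with a row 1 rose and 1 fell (658 and 2094 against 3444 and 2919.9), and of 5 neutrophil markers 2 rose (3157 and 1030.3 against 2663 and 3869). Of 5 endothelial markers 1 rose and 1 fell (1769 and 2467 against 2572 and 2803), and of 6 fibroblast markers 1 rose and 2 fell (14947 and 24019 against 17337 and 22843). Leaving out a library moved the other counts by at most 2; the luminal count fell to 3 without Control-PyMT replicate 1, MYC-PyMT replicate 1 or MYC-PyMT replicate 2.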

How the data were processed

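Poly(A)-selected, stranded RNA-seq libraries were made from 4 tumour samples, per the labels' protocols; RNA integrity per sample is not given in the sources used here. HISAT2, DESeq2 and the build mm10 (GRCm38.p5) are named in the submitters' processing notes; which counter, strand setting and annotation produced the counts is not given in the sources used here. The authors deposited scaled counts, a signal per gene. Each value was a whole multiple of 1 step per library within 0.001 reads (100% of values), so reads were recovered by division. The main test was limma 3.58.1 (variance trend, two-sided) on log2(value + 1), Benjamini-Hochberg adjusted over the 16725 genes that reached 10 in 2 or more libraries, at a threshold of 0.05. Alternatives were edgeR 4.0.16 and DESeq2 1.42.0 on the recovered reads, other scalings, filters and pseudocounts, a replicate block, and leaving out each library. The main limma test and edgeR were first run on simulated data. There limma recovered 20% of 1.5-fold changes, 88% of 2-fold changes and 100% of 4-fold changes. Each fold was given to 50 of 16725 genes, all above 50 reads on average, with a fixed dispersion. Limma called 8 unchanged genes and edgeR 7. In the data 8010 genes were called, so these recovery rates may not hold there. Coordinates, transcript lengths and overlaps came from GENCODE M21 (GRCm38), with 20463 of 20555 genes matched; levels per kilobase use the longest transcript. The genes, lists and pairs were chosen with earlier results of these data known. All 39 genes are accounted for. Of the partner, carrier and regulator lists, up to 4 called genes per direction with the smallest adjusted p are named, and others are marked as chosen after their values were seen. Reads that near-identical copies could share were not corrected.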

Additional observations from a re-analysis of the deposited data

How the results depend on the processing

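Of the 33 import and chaperone genes called higher, 26 kept the call in all 16 alternatives and 7 (Tomm6, Tomm6os, Tomm7, Timm8b, Timm17b, Timm22 and Dnajc19) lost it in at least 1. The number called higher ranged from 27, without Control-PyMT replicate 2 or without MYC-PyMT replicate 2, to 35 at an adjusted p under 0.10. Changed in direction were Timm8b with the transcript length trend removed, an alternative chosen after seeing the data (-0.0183), and Grpel2 when libraries were left out (-0.0727 to 0.41); the cause was not tested. With no level filter 1 gene of the set, Tomm20l, was called lower. Upper-quartile scaling moved the median change of all genes from -0.02 to -0.12, and 31 genes of the set were then called higher. With the replicate number as a block 32 were called higher, and 4 carriers lower, against 2; an adjusted p under 0.10 gave 5 carriers lower, and leaving out a library 1 to 4. The numbers shared between groups were not tied to animals or batches, and differences between replicates 1 and 2 correlated at -0.089 across genes between the groups. Over all genes 8010 were called, and 5236 to 6480 with a library left out, the lowest without Control-PyMT replicate 2. Low read numbers limit Tomm20l and Tomm6os.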

Other observations

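Genes that regulate mitochondrial gene expression or stress responses were also mostly higher in MYC-PyMT. Of 16 listed regulators 10 rose and 0 fell by limma, with a median log2 change of 0.74. Limma called 23.3% of all tested genes higher and 24.6% lower. Fewer regulators were called higher in each fit that left out a library. At an unadjusted p under 0.05 limma gave 12 higher and 0 lower, and edgeR and DESeq2 called 10 and 11 higher and 0 lower each. Pprc1, a coactivator of the PGC1 family, had 701 and 1150.04 scaled counts in Control-PyMT against 2968 and 2464 in MYC-PyMT (log2 1.59, limma adjusted p = 0.000729). Its relative Ppargc1b went from 26.2 and 62.0 to 220.4 and 212 (log2 2.39, limma adjusted p = 0.00115), while Ppargc1a had 166 and 125 against 239.5 and 109.9 and was not called. Atf5, a transcription factor of the mitochondrial stress response, went from 1019 and 1794 to 3566 and 4162 (log2 1.51, limma adjusted p = 0.00120), and Atf4 from 7555 and 6733 to 14475 and 21495 (log2 1.31, 0.00120), the latter a call lost without Control-PyMT replicate 2 (0.0504). Ddit3 had a log2 change of 0.30 and was not called (limma adjusted p = 0.404). Tfam, which packages mitochondrial DNA, rose by 0.86. Ppargc1a, Ddit3 and Tfam were chosen after their values were seen.

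Processed copies of 2 chaperone genes carried reads. Hspd1-ps3 had 87.0 and 83.2 scaled counts in Control-PyMT against 377 and 343 in MYC-PyMT, and Hspa9-ps1 had 48.6 and 27.2 against 141.9 and 160.4. These values are small beside those of Hspd1 and Hspa9, and reads may be shared between a gene and its copy. Timm29, a subunit of the TIM22 complex, is listed under the older symbol 1810026J23Rik, which the rule did not match. It had 2604 and 2191 against 3779 and 3201 scaled counts (log2 0.54, limma adjusted p = 0.0404).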
